A study of Homo sapiens with 8 samples.

Results

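Cells of the human colorectal cancer line HCT-116 were compared after knockdown of the TEAD transcription factors and after knockdown of YAP and TAZ, the coactivators that TEAD factors bind. The genes were compared over 3 of the 8 RNA-seq libraries of the series. In siTEAD1/2/3/4, which is 1 library, the cells received siRNAs against *TEAD1*, *TEAD2*, *TEAD3* and *TEAD4*. In siYAP/TAZ, which is 2 libraries, they received siRNAs against *YAP1* and against *WWTR1*, the gene of TAZ, and the pair of siRNAs differed between siYAP/TAZ 1 and siYAP/TAZ 2. The 2 libraries with the control siRNA (siNC) served as a reference level. The remaining 3 libraries (siHHEX), in which the transcription factor gene *HHEX* was knocked down, entered only a linear model fitted across all genes with limma. All are transient knockdowns in the same line, which can lower the targeted mRNAs and leave their genes intact. No label says that the libraries came from separate cultures.

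The deposited values are FPKM, which count the fragments of each gene relative to transcript length and library size. Of the 20030 rows in each file, 10461 had at least 1 FPKM in at least 2 of the 3 libraries and were compared on log2(FPKM + 1), on which a difference of 1 is 2-fold for a well-expressed gene and a difference of a low gene is understated. The FPKM values summed to 331663 in siYAP/TAZ 1, 336954 in siYAP/TAZ 2 and 343785 in siTEAD1/2/3/4. The number of reads is unknown, but the steps between the lowest values put siYAP/TAZ 2 at a depth of 0.954 times and siTEAD1/2/3/4 at 0.89 times that of siYAP/TAZ 1. Since siTEAD1/2/3/4 has no replicate, differences of single genes are given as measurements, with the distance between the siYAP/TAZ libraries as the spread, and the fit across all genes is given by its number of calls.

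YAP and TAZ do not bind DNA themselves. The kinases of the Hippo pathway, MST1/2 and LATS1/2, phosphorylate them and keep them in the cytoplasm, and when unphosphorylated they enter the nucleus and bind TEAD1 to TEAD4, which contact DNA through the TEA domain. Their best known targets include genes of secreted matrix proteins such as *CYR61* and *CTGF* and genes that restrain the pathway itself, such as *LATS2* and *AMOTL2*. YAP and TAZ can also bind other transcription factors, and TEAD factors can bind other partners, so the comparison asks what differs when the coactivators or the DNA-binding factors are lowered.

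The sequences of the siRNAs show which mRNAs each could lower. They are given as the sense strand, 5′ to 3′, and the capitals mark the 7 bases that pair with the seed of the guide strand.
siTEAD1/3/4: ugaucaacuucAUCCACAa
siTEAD2: gccagaugcagUUGAUUCutt
siYAP_1: gacaucuucugGUCAGAGa
siYAP_2: cuggucagagaUACUUCUu
siTAZ_1: acguugacuuaGGAACUUu
The 19 bases of siTEAD1/3/4 matched *TEAD1* at chr11:12930244-12930262, *TEAD3* at chr6:35475400-35475418 and *TEAD4* at chr12:3040177-3040195 (GRCh38), in exon 12 of 13 of the canonical transcript of each gene. siTEAD2 matched *TEAD2* at chr19:49348703-49348721, in exon 9 of 13. siYAP_1 matched *YAP1* at chr11:102114365-102114383 and siYAP_2 at chr11:102114373-102114391, both in exon 2 of 9, and these sites share 11 bases. siTAZ_1 matched *WWTR1* at chr3:149520887-149520905, in exon 7 of 7. All of these sites are in coding sequence. The siTAZ_2 sequence is not shown, because the sources used here spell it differently.

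The targeted genes separated the knockdowns, with the exception of *TEAD3*. *YAP1* was at 6.9 and 8.39 FPKM in siYAP/TAZ 1 and 2, at 22.6 FPKM in siTEAD1/2/3/4, and at 20.2 and 19.7 FPKM in siNC. *WWTR1* was at 2.64 and 2.58 FPKM in siYAP/TAZ, at 6.84 FPKM in siTEAD1/2/3/4, and at 6.8 and 6.72 FPKM in siNC. Both coactivator genes were thus at 38.3% and 38.6% of the siNC mean in siYAP/TAZ and at 113% and 101% in siTEAD1/2/3/4. *TEAD4* was at 5.56 FPKM in siTEAD1/2/3/4, 26.7% of the siNC mean, and at 12.5 and 13.6 FPKM in siYAP/TAZ, 62.7% of the siNC mean. *TEAD1* was at 9.02 FPKM in siTEAD1/2/3/4 and at 16.4 and 16.1 FPKM in siYAP/TAZ, or 48.4% and 87.1% of the siNC mean. *TEAD2* was at 2.73 FPKM in siTEAD1/2/3/4 but at 5.54 and 6.32 FPKM in siYAP/TAZ, above its 4.1 and 3.47 FPKM in siNC. *TEAD3*, which has the siTEAD1/3/4 site in full, was at 9.08 FPKM in siTEAD1/2/3/4, above the 7.75 and 8.07 FPKM of siYAP/TAZ and the 7.36 and 6.99 FPKM of siNC. At the mRNA level siTEAD1/2/3/4 was therefore lower than siYAP/TAZ for *TEAD1*, *TEAD2* and *TEAD4* and not for *TEAD3*. Protein was not measured in these files. The knockdowns were thus unequal in strength at the mRNA level. For this reason a gene near siNC in siTEAD1/2/3/4 cannot be called independent of TEAD factors from these values.

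**Figure D1:**
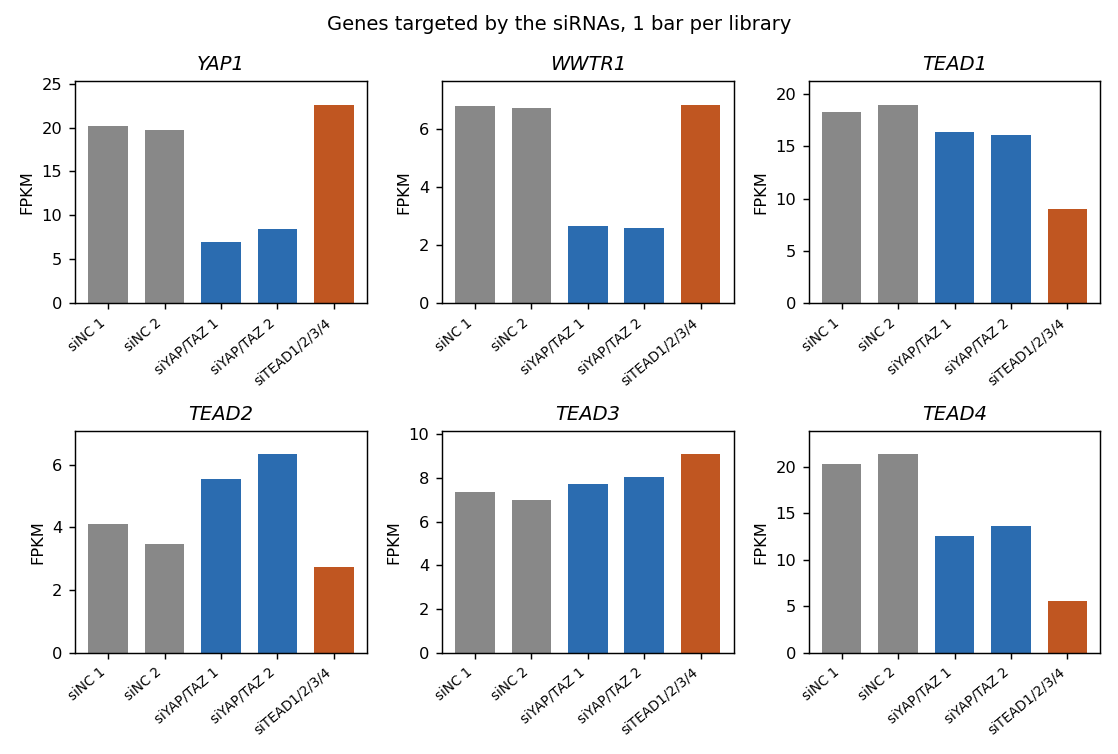
FPKM of the genes targeted by the siRNAs, with 1 bar per library (siNC grey, siYAP/TAZ blue, siTEAD1/2/3/4 orange) and an axis of its own for each gene. *YAP1* and *WWTR1* are low only in siYAP/TAZ, *TEAD1*, *TEAD2* and *TEAD4* are lowest in siTEAD1/2/3/4, and *TEAD3* is highest there at 9.08 FPKM.

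Across the 10461 genes, siTEAD1/2/3/4 was about as close to siNC as to siYAP/TAZ. Pearson's r across genes, which are not independent replicates, was 0.988 between siTEAD1/2/3/4 and siYAP/TAZ 1, 0.98 between siTEAD1/2/3/4 and siYAP/TAZ 2, and 0.986 between the siYAP/TAZ libraries. Against siNC 1 and 2 it was 0.984 and 0.985 for siTEAD1/2/3/4. A difference of 2-fold or more was found for 57 genes between siTEAD1/2/3/4 and siYAP/TAZ 1, for 115 between siTEAD1/2/3/4 and siYAP/TAZ 2, and for 55 between the siYAP/TAZ libraries themselves. It was found for 91 and 90 genes between siTEAD1/2/3/4 and siNC 1 and 2, and for 1 between the siNC libraries. The distance of siTEAD1/2/3/4 from siYAP/TAZ 1 was thus similar to the distance between the siYAP/TAZ libraries, which also differ in siRNA. To count a gene, siTEAD1/2/3/4 therefore had to lie outside both siYAP/TAZ libraries, and its distance was taken to the nearer of them. By this measure 5 genes (0.0478% of those compared) were 2-fold or more above both siYAP/TAZ libraries and 12 (0.115%) were 2-fold or more below both. The counts depended on the measure, with 12 and 54 for a pseudocount of 0.1, 12 and 38 for the distance from the mean of siYAP/TAZ, and 4 and 18 with GC content and transcript length corrected for. At 1.5-fold, a threshold chosen after the values were seen, 33 genes (0.315%) were above both and 156 (1.49%) below both. By any distance, 32.2% of the genes were above both, 39.9% below both, and the remaining 2920 genes (27.9%) lay between the siYAP/TAZ libraries. The filter favours the lower side, because 187 genes under 1 FPKM in siTEAD1/2/3/4 passed through siYAP/TAZ and could only lie below both. They were 3 of the 12 genes at 2-fold and 22 of the 156 at 1.5-fold, and with no filter 7 genes were above both and 12 below both at 2-fold, and 37 and 165 at 1.5-fold.

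limma, fitted to all 8 libraries with the spread of the single siTEAD1/2/3/4 library taken from the other groups, called 1 gene (0.00956%) at an adjusted p under 0.05. This was *HIST1H2BD*, which was lower in siTEAD1/2/3/4, and no gene was called higher. The call rests on a group of 1 library, and *HIST1H2BD*, with under 1 FPKM in siTEAD1/2/3/4, passed the filter only through siYAP/TAZ, so the call supports nothing about the gene. A fit without the siHHEX libraries called no gene, a fit without the filter called 23, of which 20 were higher, and a fit without siYAP/TAZ 1 called 6. Without adjustment, 384 genes were higher and 627 lower at a p under 0.05. The median standard error of a difference was 0.192 on the log2 scale, and 0.138 in the fit without the siHHEX libraries. The paper lists separate siRNAs against *HHEX*, and the siYAP/TAZ libraries also differ in siRNA. The spread used in the fit can therefore hold effects of the siRNA as well as replicate variation. The differences were also related to base composition. Spearman's rho across 10407 genes between the GC content of the transcript and the siTEAD1/2/3/4 minus siYAP/TAZ difference was 0.348. It was 0.17 for siYAP/TAZ 1 minus siYAP/TAZ 2 and -0.221 for siNC 1 minus siNC 2. GC-rich transcripts thus tended to be higher in siTEAD1/2/3/4, but libraries of the same group also differed with GC content. The part of base composition in single genes was not tested, and counts with GC content and transcript length corrected for together are given for the main gene groups. With this correction 32.4% of all genes were above both and 37.5% below both.

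**Figure D2:**
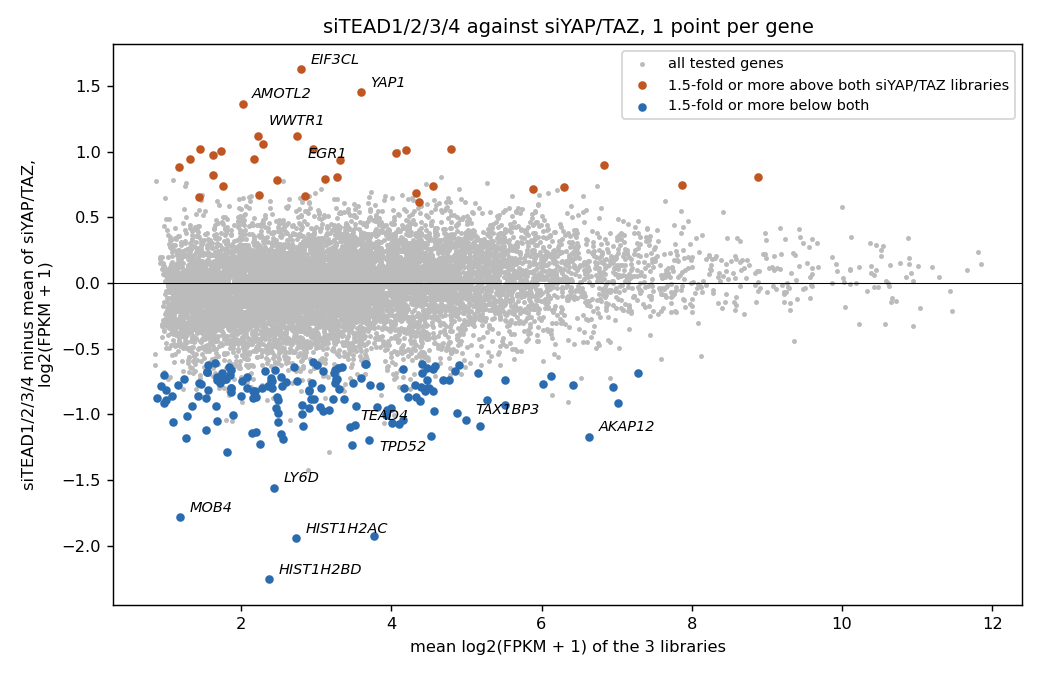
Difference between siTEAD1/2/3/4 and the mean of siYAP/TAZ against the mean level of the 3 libraries, both on log2(FPKM + 1), with 1 point per gene. The 33 genes at least 1.5-fold above both siYAP/TAZ libraries are orange and the 156 at least 1.5-fold below both are blue, and 13 of the genes past 2-fold are named.

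Few genes were 2-fold lower after YAP/TAZ knockdown than after TEAD knockdown. Apart from the siRNA targets *YAP1* and *WWTR1*, the genes 2-fold or more above both siYAP/TAZ libraries in siTEAD1/2/3/4 were *EIF3CL*, with the largest distance, *AMOTL2* and *EGR1*. *AMOTL2*, an angiomotin that holds YAP and TAZ at junctions and in the cytoplasm, was at 1.72 and 2.24 FPKM in siYAP/TAZ, at 6.65 FPKM in siTEAD1/2/3/4, and at 14.3 and 14.6 FPKM in siNC. Its difference was 1.37 on the log2 scale, where the siYAP/TAZ libraries were 0.25 apart, so that it was low in both knockdowns but lower in siYAP/TAZ. *EGR1*, an immediate early transcription factor of growth factor signalling, was at 3.87 and 4.48 FPKM in siYAP/TAZ, at 10.2 FPKM in siTEAD1/2/3/4, and at 4.6 and 4.29 FPKM in siNC. Here siYAP/TAZ was near siNC, and siTEAD1/2/3/4 was the library that stood apart. *EIF3CL* was at 13.8 FPKM in siTEAD1/2/3/4 and at 3.96 and 3.61 FPKM in siYAP/TAZ, while its near-identical copy *EIF3C*, with which it can share reads, was at 7.13, 7.37 and 7.99 FPKM. The value of *EIF3CL* is therefore uncertain.

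The other genes among the 12 with the largest distance above both were *MAP3K14*, *SMAD7*, *KRT7*, *DHRS2*, *TNFRSF12A*, *GINS1* and *TUSC2*. *MAP3K14*, the kinase NIK of noncanonical NF-kB signalling, was just under the 2-fold threshold with a distance of 0.99. It was at 1.69 and 1.61 FPKM in siYAP/TAZ against 4.32 FPKM in siTEAD1/2/3/4 and 4.32 and 4.29 FPKM in siNC, so that only siYAP/TAZ was low. *TNFRSF12A*, the receptor of the cytokine TWEAK, was at 92.1 and 91.8 FPKM in siYAP/TAZ, at 172 FPKM in siTEAD1/2/3/4, and at 252 and 271 FPKM in siNC. *KRT7*, a keratin of simple epithelia, had the same order, with 1.54 and 1.39 FPKM in siYAP/TAZ, 3.85 FPKM in siTEAD1/2/3/4, and 5.94 and 6.53 FPKM in siNC. *SMAD7*, which inhibits TGF-beta receptors and also binds YAP, was at 1.02 and 1.3 FPKM in siYAP/TAZ, at 3.38 FPKM in siTEAD1/2/3/4, and at 2.52 and 2.08 FPKM in siNC. Among the 33 genes at least 1.5-fold above both, siYAP/TAZ was the knockdown farther from siNC, and below it, in 23, and siTEAD1/2/3/4 was farther from siNC, and above it, in 10. Both knockdowns are set against the same siNC libraries here, so that these counts place the levels and are no separate evidence.

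The genes lower in siTEAD1/2/3/4 than in both siYAP/TAZ libraries fell into 2 kinds by which knockdown was farther from siNC. In the first kind siTEAD1/2/3/4 was farther from siNC, and below it. *AKAP12*, a scaffold protein of protein kinase A and C, was the most abundant, at 57 FPKM in siTEAD1/2/3/4, at 128 and 131 FPKM in siYAP/TAZ, and at 124 and 122 FPKM in siNC. Its difference was -1.17, and the siYAP/TAZ libraries were 0.042 apart. *TAX1BP3*, a small PDZ domain protein, was at 18.7 FPKM in siTEAD1/2/3/4 and between 38.8 and 40.3 FPKM in the siYAP/TAZ and siNC libraries. *TPD52*, a regulator of vesicle and lipid traffic, was at 6.48 FPKM in siTEAD1/2/3/4 and at 17.3 and 15 FPKM in siYAP/TAZ. *AMMECR1* was at 2.41 FPKM in siTEAD1/2/3/4 and at 6.3 and 7.27 FPKM in siYAP/TAZ. The noncoding *LINC01835*, the last gene past the threshold, was at 2.45 FPKM against 6.44 and 5.9 FPKM. For these 5 genes the siYAP/TAZ and siNC values were within a similar range and siTEAD1/2/3/4 lay below all of them.

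In the second kind siYAP/TAZ was above siNC, and farther from it than siTEAD1/2/3/4 was on either side. *LY6D*, a surface protein of stratified epithelia, was at 5.36 and 8.52 FPKM in siYAP/TAZ, at 1.64 FPKM in siTEAD1/2/3/4, and at 0.473 and 0.936 FPKM in siNC. *TSPAN1*, a tetraspanin of secretory epithelia, was at 6.72 and 6.4 FPKM in siYAP/TAZ, at 2.41 FPKM in siTEAD1/2/3/4, and at 2.06 and 2.89 FPKM in siNC. *DNER*, a transmembrane protein that can bind Notch, was at 4.73 and 2.88 FPKM in siYAP/TAZ, at 0.931 FPKM in siTEAD1/2/3/4, and at 1.37 and 1.41 FPKM in siNC. *HIST1H2BD* and *HIST1H2AC* belong here too and are described with the histones. *MOB4* was listed near 0 in siTEAD1/2/3/4 and siNC and at 2.91 and 2.04 FPKM in siYAP/TAZ, but the readthrough gene *HSPE1-MOB4*, which contains it, was at 14 FPKM in siTEAD1/2/3/4 and at 11.3 and 11.1 FPKM in siYAP/TAZ. How the reads were divided between these overlapping genes cannot be told from FPKM, so the difference of *MOB4* is uncertain. Of the 156 genes at least 1.5-fold below both, siYAP/TAZ was farther from siNC, and above it, in 100, and siTEAD1/2/3/4 was farther, and below it, in 56. Of the 12 genes past 2-fold, 6 were of each kind, with the siRNA target *TEAD4*, which was below siNC in both knockdowns, counted in the first. *HIST1H2BD*, *DNER* and *MOB4* were under 1 FPKM in siTEAD1/2/3/4 and are the 3 that could only lie below both.

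In the conserved YAP/TAZ target signature, a list of genes that YAP and TAZ induce in many cell types, 14 of 22 members were compared. Of these, 8 (57.1%) were above both siYAP/TAZ libraries in siTEAD1/2/3/4 and 5 (35.7%) below both, against 32.2% and 39.9% of all genes, with a median difference of 0.19 against -0.027 over all genes. The median was 0.18 against siYAP/TAZ 1 alone and 0.11 against siYAP/TAZ 2 alone, and with GC content and length corrected for 7 were above both and 4 below both. *CYR61*, a secreted matrix protein, was at 2 and 3.37 FPKM in siYAP/TAZ, at 5.99 FPKM in siTEAD1/2/3/4, and at 9.83 and 10.6 FPKM in siNC. *LATS2*, the kinase that phosphorylates YAP, was at 1.61 and 2.11 FPKM in siYAP/TAZ and at 3.76 FPKM in siTEAD1/2/3/4, which was near the 3.65 and 3.71 FPKM of siNC. *PTPN14*, a phosphatase that binds YAP, was at 2.23 and 3.25 FPKM in siYAP/TAZ, at 4.83 FPKM in siTEAD1/2/3/4, and at 4.83 and 5.46 FPKM in siNC.

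Other members of the signature did not separate the knockdowns, or did so in the other direction. *F3*, tissue factor, was at 11.3 and 10.4 FPKM in siYAP/TAZ and at 9.93 FPKM in siTEAD1/2/3/4, against 79.6 and 77.7 FPKM in siNC. *AXL*, a receptor tyrosine kinase, was at 5.23 and 6.48 FPKM in siYAP/TAZ and at 7.43 FPKM in siTEAD1/2/3/4, against 18.9 FPKM in both siNC libraries. For *CRIM1*, *ASAP1*, *DOCK5*, *FJX1* and *ARHGEF17* the distance to the nearer siYAP/TAZ library was between -0.089 and 0.14, and *GADD45A* was at -0.21. *NT5E*, the ecto-enzyme CD73, was the lowest, at 5.9 FPKM in siTEAD1/2/3/4, at 13.1 and 10.5 FPKM in siYAP/TAZ, and at 15.3 and 15.5 FPKM in siNC. *MYOF*, a membrane repair protein, was at 23 FPKM in siTEAD1/2/3/4, at 28.8 and 34 FPKM in siYAP/TAZ, and at 35.4 and 35.7 FPKM in siNC. The 8 members not compared included *CTGF*, at 0.424 FPKM in siTEAD1/2/3/4 and at 0.209 and 0.0794 FPKM in siYAP/TAZ, and *ANKRD1*, listed at 0 in all 5 libraries.

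**Figure D3:**
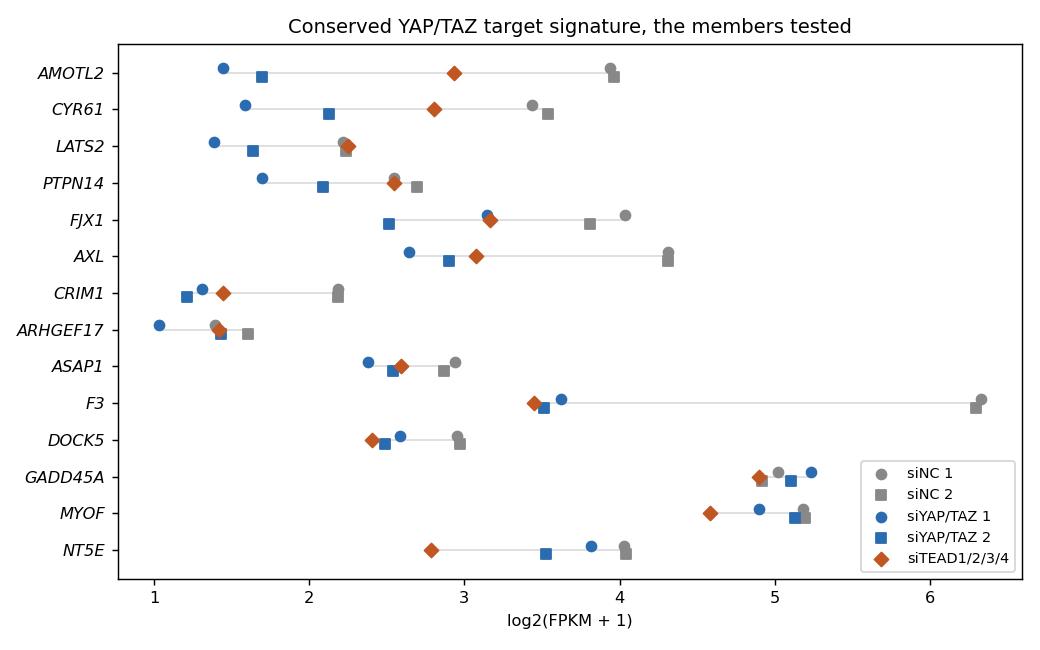
Level on log2(FPKM + 1) of the 14 signature genes compared, with siNC as grey, siYAP/TAZ as blue and siTEAD1/2/3/4 as orange symbols, ordered by the siTEAD1/2/3/4 minus siYAP/TAZ difference. *AMOTL2*, *CYR61*, *LATS2* and *PTPN14* have siTEAD1/2/3/4 clearly right of siYAP/TAZ, *F3* is equally low in both knockdowns, and *NT5E* and *MYOF* have siTEAD1/2/3/4 on the left.

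Of 29 other reported targets of YAP and TEAD, 24 were compared, and 12 were above both siYAP/TAZ libraries and 3 (12.5%) below both, against 32.2% and 39.9% of all genes, or 14 and 4 with GC content and length corrected for. The median difference was 0.11, and it was 0.056 against siYAP/TAZ 1 alone and 0.22 against siYAP/TAZ 2 alone. *AJUBA*, a LIM protein that binds LATS kinases, was at 5.89 and 6.6 FPKM in siYAP/TAZ, at 11.5 FPKM in siTEAD1/2/3/4, and at 14.8 and 16.4 FPKM in siNC. In the other direction, *KRTAP2-3* was at 1.92 FPKM in siTEAD1/2/3/4 and at 3.08 and 3.74 FPKM in siYAP/TAZ, against 12.2 and 11.2 FPKM in siNC. Among 25 of 28 Hippo kinases and upstream regulators, 13 (52%) were above both and 9 (36%) below both, or 15 and 7 with GC content and length corrected for. Beside *AMOTL2*, *LATS2* and *PTPN14*, the largest distance was that of the kinase *MAP4K5* (-0.36), at 1.64 FPKM in siTEAD1/2/3/4 and 2.39 and 2.41 FPKM in siYAP/TAZ. *NF2*, the scaffold merlin, came next at 0.34, with 13.8 FPKM in siTEAD1/2/3/4 and 10.7 and 8.9 FPKM in siYAP/TAZ.

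Genes of DNA replication were higher in siTEAD1/2/3/4 than in siYAP/TAZ as a group, by small amounts. All 42 members were compared, 34 (81%) were above both siYAP/TAZ libraries and 4 below both, against 32.2% and 39.9% over all genes, and the median difference was 0.25. The median was 0.17 against siYAP/TAZ 1 and 0.31 against siYAP/TAZ 2. With GC content and length corrected for, 35 were above both and 2 below both. Against siNC, the median of the list was 0.16 in siTEAD1/2/3/4 and -0.085 and -0.17 in siYAP/TAZ 1 and 2, where that of all genes was 0.061, 0.07 and 0.093. *GINS1*, a subunit of the GINS complex of the replicative helicase, had the largest distance, with 15.1 and 12 FPKM in siYAP/TAZ, 28.3 FPKM in siTEAD1/2/3/4, and 22.3 and 22.4 FPKM in siNC. It was the only member at least 1.5-fold apart. *GINS2*, of the same complex, was at 57.7 and 48.3 FPKM in siYAP/TAZ and at 80.2 FPKM in siTEAD1/2/3/4. *ORC1*, of the origin recognition complex, was at 13.3 and 13.9 FPKM in siYAP/TAZ and at 19.7 FPKM in siTEAD1/2/3/4. *CHAF1B*, a histone chaperone of the replication fork, was at 14.4 and 14.1 FPKM in siYAP/TAZ, at 20.8 FPKM in siTEAD1/2/3/4, and at 14.5 and 14.7 FPKM in siNC. All 4 GINS genes and 5 of the 6 compared subunits of the MCM helicase (*MCM2*, *MCM3*, *MCM4*, *MCM5* and *MCM7*, but not *MCM6*) were above both siYAP/TAZ libraries.

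Other genes of the cell cycle lay on the same side. Of 35 mitosis genes, all compared, 24 (68.6%) were above both siYAP/TAZ libraries and 4 (11.4%) below both, against 32.2% and 39.9% of all genes, or 27 and 4 with GC content and length corrected for. The median difference was 0.17, and it was 0.19 against siYAP/TAZ 1 alone and 0.091 against siYAP/TAZ 2 alone. *PLK1*, a mitotic kinase, was at 62.7 and 52.1 FPKM in siYAP/TAZ, at 92.6 FPKM in siTEAD1/2/3/4, and at 99.1 and 109 FPKM in siNC. *CENPA*, the centromeric histone H3 variant, was at 15.3 and 17.2 FPKM in siYAP/TAZ and at 23.8 FPKM in siTEAD1/2/3/4. *KIF23*, a kinesin of cytokinesis, was at 17.7 and 17.2 FPKM against 23.1 FPKM. *NUF2*, of the kinetochore, was the main exception, at 7.78 FPKM in siTEAD1/2/3/4 and at 10.7 and 12.5 FPKM in siYAP/TAZ. Of 23 compared genes of the G1/S transition 12 (52.2%) were above both and 2 (8.7%) below both, or 15 and 2 with GC content and length corrected for. The median was 0.12, and it was 0.12 against siYAP/TAZ 1 alone and 0.30 against siYAP/TAZ 2 alone. The list also holds inhibitors of cyclin-dependent kinases. Those below both were *CDKN1A* and *CDKN2D*, while *CDKN1B* was above both by a distance of 0.34. *E2F3* and *CDK4* were above both by only 0.0044 and 0.011. *CDK6*, a cyclin D-dependent kinase, was at 5.3 and 5.7 FPKM in siYAP/TAZ, at 8.95 FPKM in siTEAD1/2/3/4, and at 9.49 and 10.6 FPKM in siNC. *E2F1*, the factor that drives S phase genes, was at 12.1 ± 2.87 FPKM (SD, n = 2) in siYAP/TAZ and at 19 FPKM in siTEAD1/2/3/4. *CDC25A*, a phosphatase that activates cyclin-dependent kinases, was at 18 and 8.57 FPKM in siYAP/TAZ against 26 FPKM, so that much of its difference lay between the siYAP/TAZ libraries.

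**Figure D4:**
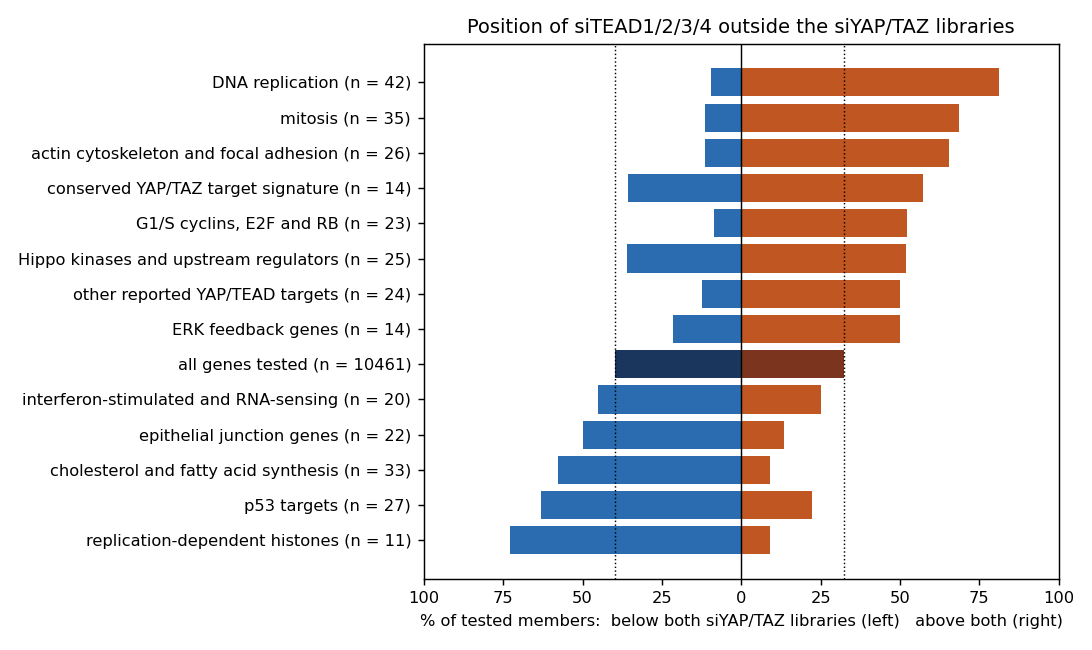
Share of the compared members of each gene list for which siTEAD1/2/3/4 lay above both siYAP/TAZ libraries (orange, right) or below both (blue, left), in percent. The dark bar and the dotted lines give the same for all 10461 genes, 32.2% and 39.9%, and DNA replication (81% above) and the histones (72.7% below) are at the ends. The histone bar includes 3 genes that the filter let pass only through siYAP/TAZ.

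Some replication-dependent histone genes, in contrast, were lower in siTEAD1/2/3/4. Of 24 members 11 were compared, and 8 of them were below both siYAP/TAZ libraries and 1 above both, with a median difference of -0.79, while 39.9% of all genes were below both and 32.2% above both. These values rest in part on the filter, since 3 of the 8 had under 1 FPKM in siTEAD1/2/3/4 and passed only through siYAP/TAZ, where they were higher. Without them, a choice made after the data were seen, 5 of 8 were below both, with a median of -0.47, and over all 24 members, with no filter, 12 were below both, 6 above both and 6 between, which is nearer to the shares of all genes. Of the 10 with a transcript for the GC and length correction, 8 were below both and 2 above both after it. *HIST1H2BD*, an H2B gene on chromosome 6 from 26158122 to 26158607, was at 6.83 and 8.78 FPKM in siYAP/TAZ, at 0.833 FPKM in siTEAD1/2/3/4, and at 0.68 and 0.593 FPKM in siNC. Its difference was -2.26, where the siYAP/TAZ libraries were 0.32 apart. *HIST1H2AC*, an H2A gene, was at 6.04 and 14.4 FPKM in siYAP/TAZ, at 1.71 FPKM in siTEAD1/2/3/4, and at 2.42 and 2.44 FPKM in siNC. *HIST2H2BE* was at 1.36 and 2.14 FPKM in siYAP/TAZ and at 0.309 FPKM in siTEAD1/2/3/4. *HIST3H2A* was at 9.65 and 19.7 FPKM in siYAP/TAZ and at 5.33 FPKM in siTEAD1/2/3/4. In these 4 genes siTEAD1/2/3/4 was near siNC or below it, and siYAP/TAZ was above siNC in both libraries. Not all histone genes went this way. *HIST2H2AC* was above both siYAP/TAZ libraries, with a difference of 0.49. *HIST1H2BC* and *HIST1H4B* lay between them, with differences from their mean of 0.13 and 0.49. Histone genes are near-identical copies whose reads can be shared, and the mRNA of most lacks a poly(A) tail, so their FPKM also depends on how the libraries were made.

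Genes that p53 activates were also mostly lower in siTEAD1/2/3/4. Of 27 compared, 17 (63%) were below both siYAP/TAZ libraries and 6 (22.2%) above both, against 39.9% and 32.2% of all genes, with a median of -0.22. The counts were 14 (51.9%) and 7 (25.9%) with GC content and length corrected for, against 37.5% and 32.4% of all genes. The median was -0.073 against siYAP/TAZ 1 alone and -0.13 against siYAP/TAZ 2 alone. *TP53INP1*, a cofactor of p53 in stress responses, was at 6.86 and 9.54 FPKM in siYAP/TAZ, at 3.29 FPKM in siTEAD1/2/3/4, and at 2.55 and 2.39 FPKM in siNC. *TP53I3*, an oxidoreductase, was at 8.16 and 10.7 FPKM in siYAP/TAZ, at 4.37 FPKM in siTEAD1/2/3/4, and at 2.17 and 2.3 FPKM in siNC. *SESN1*, a sestrin that restrains mTORC1, was at 9.33 and 11.6 FPKM in siYAP/TAZ and at 5.89 FPKM in siTEAD1/2/3/4, near its 5.74 and 5.24 FPKM in siNC. *RRM2B*, the p53-induced subunit of ribonucleotide reductase, was at 22.9 and 26.5 FPKM in siYAP/TAZ and at 15 FPKM in siTEAD1/2/3/4, near its 15.6 and 15.5 FPKM in siNC. *CDKN1A*, the cyclin-dependent kinase inhibitor p21, was at 150.2 and 117 FPKM in siYAP/TAZ and at 97 FPKM in siTEAD1/2/3/4, near its 97.7 and 99 FPKM in siNC. For these 5 genes siYAP/TAZ was above siNC in both libraries.

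**Figure D5:**
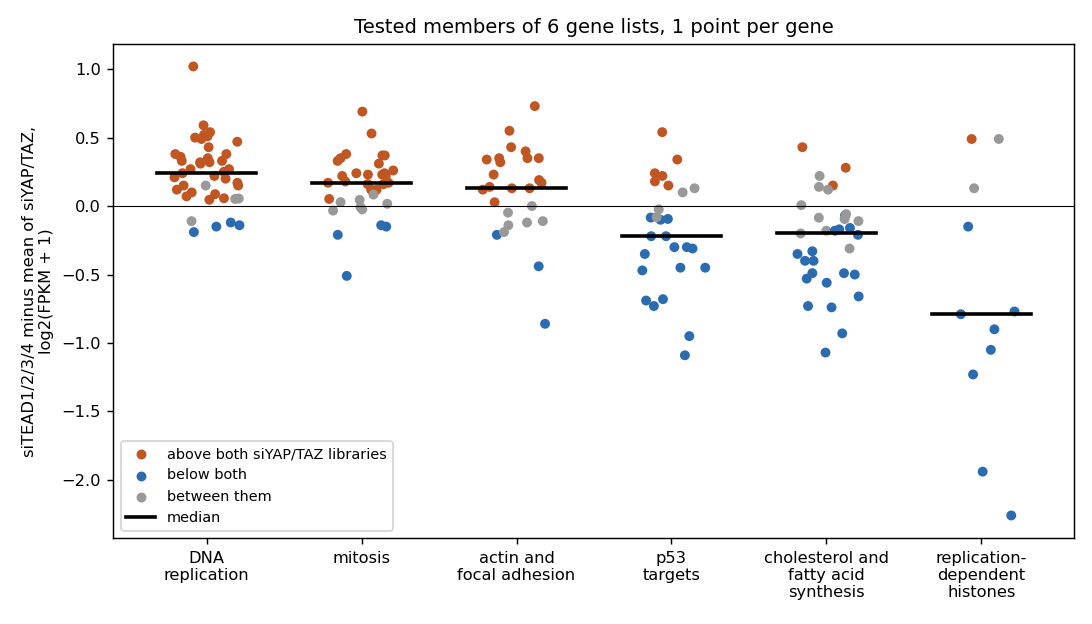
Difference between siTEAD1/2/3/4 and the mean of siYAP/TAZ on log2(FPKM + 1) for each compared member of 6 gene lists, with the median as a black line. Orange and blue points lie above and below both siYAP/TAZ libraries and grey points between them. The medians run from 0.25 for DNA replication to -0.79 for the histones, of which 3 passed the filter only through siYAP/TAZ.

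Genes of the actin cytoskeleton were mostly above siYAP/TAZ in siTEAD1/2/3/4, by small amounts that shrank when GC content and length were corrected for together. Of 26 compared genes of the actin cytoskeleton and focal adhesions 17 (65.4%) were above both siYAP/TAZ libraries and 3 (11.5%) below both, against 32.2% and 39.9% of all genes, with a median of 0.14. The median GC content of the group was 55.1% against 48.8% over all genes, and once GC content and length were corrected for, 11 members were above both and 4 below both, with a median of 0.049. The parts of GC content and of length in this were not tested separately. *FLNA*, filamin A, was at 53.3 and 50.6 FPKM in siYAP/TAZ, at 76.4 FPKM in siTEAD1/2/3/4, and at 91.5 and 103 FPKM in siNC. *CNN2*, calponin 2, was at 72 and 59.9 FPKM in siYAP/TAZ and at 109.8 FPKM in siTEAD1/2/3/4. In the other direction, *ACTA2*, smooth muscle actin, was at 0.809 FPKM in siTEAD1/2/3/4 and at 1.84 and 2.79 FPKM in siYAP/TAZ. It passed the filter only through siYAP/TAZ and could only lie below both. Without it, 17 of 25 genes were above both and 2 below both. *TPM1*, a tropomyosin, was at 2 FPKM in siTEAD1/2/3/4 against 3.13 and 2.97 FPKM in siYAP/TAZ. Among keratins of simple epithelia *KRT8* and *KRT18* were abundant and above both siYAP/TAZ libraries, while *KRT19*, at 538 FPKM in siTEAD1/2/3/4, lay between the 589.6 and 505 FPKM of siYAP/TAZ. *KRT18* was at 376 and 404 FPKM in siYAP/TAZ, at 681 FPKM in siTEAD1/2/3/4, and at 900.5 and 917 FPKM in siNC. Its partner *KRT8* was at 898 and 897 FPKM in siYAP/TAZ, at 1341 FPKM in siTEAD1/2/3/4, and at 1591 and 1707 FPKM in siNC. In the list of epithelial junction genes, which includes *KRT8* and *KRT18*, 11 of 22 were below both, against 39.9% of all genes, and 3 above both, or 12 and 2 with GC content and length corrected for. *OCLN*, occludin of tight junctions, was at 2.03 FPKM in siTEAD1/2/3/4 and at 3.72 and 4.29 FPKM in siYAP/TAZ. *DSC2*, a desmosomal cadherin, was at 11.8 FPKM in siTEAD1/2/3/4, at 24 and 16.7 FPKM in siYAP/TAZ, and at 6.33 and 6.44 FPKM in siNC.

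Enzymes of cholesterol and fatty acid synthesis were lower in siTEAD1/2/3/4, mainly against siYAP/TAZ 1. Of 33 genes, all compared, 19 (57.6%) were below both siYAP/TAZ libraries and 3 (9.09%) above both, against 39.9% and 32.2% of all genes, with a median of -0.20. The median was -0.43 against siYAP/TAZ 1 and -0.064 against siYAP/TAZ 2, so that its size depended on which siYAP/TAZ library was used. With GC content and length corrected for, 22 were below both and 2 above both. *ACLY*, which makes cytosolic acetyl-CoA from citrate, was at 28.9 FPKM in siTEAD1/2/3/4, at 56.1 and 55.7 FPKM in siYAP/TAZ, and at 60.4 and 60.7 FPKM in siNC. *ELOVL6*, a fatty acid elongase, was at 6.03 FPKM in siTEAD1/2/3/4 and at 10.1 FPKM in both siYAP/TAZ libraries. *TM7SF2*, a sterol reductase, was at 9.47 FPKM in siTEAD1/2/3/4, at 16.3 and 26.9 FPKM in siYAP/TAZ, and at 2.38 and 3.62 FPKM in siNC. *ACLY* was below siNC in siTEAD1/2/3/4, and *TM7SF2* was above siNC in both knockdowns. Against siNC, the median of the list was 0.12 in siTEAD1/2/3/4 and 0.40 and 0.22 in siYAP/TAZ 1 and 2. That of all genes was 0.061, 0.07 and 0.093.

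Signalling genes downstream of growth factors differed gene by gene. Of 14 compared feedback genes of ERK signalling 7 were above both siYAP/TAZ libraries and 3 (21.4%) below both, with or without GC content and length corrected for, against 32.2% and 39.9% of all genes. Their median depended on the siYAP/TAZ library used and was 0.025 against siYAP/TAZ 1 and 0.41 against siYAP/TAZ 2. Beside *EGR1*, *EPHA2*, an ephrin receptor, was at 14.3 and 10.6 FPKM in siYAP/TAZ, at 25.4 FPKM in siTEAD1/2/3/4, and at 42.5 and 45.4 FPKM in siNC. *SPRY4*, an inhibitor of receptor tyrosine kinase signalling, was at 7.02 and 3.68 FPKM in siYAP/TAZ and at 11.4 FPKM in siTEAD1/2/3/4. Of 8 compared AP-1 genes, whose products bind DNA beside TEAD at many enhancers, 1 (12.5%) was above both, 2 (25%) were below both and the other 5 lay between the siYAP/TAZ libraries. *JUNB* was at 31.6 FPKM in siTEAD1/2/3/4, at 57.7 and 49.3 FPKM in siYAP/TAZ, and at 50.8 and 51.9 FPKM in siNC. *JUND* was at 64.7 FPKM in siTEAD1/2/3/4 and at 92.1 and 125 FPKM in siYAP/TAZ. *FOSL1*, which was at 148 and 147 FPKM in siNC, was at 53.8 FPKM in siTEAD1/2/3/4, between the 57.8 and 34.5 FPKM of siYAP/TAZ. Among 18 compared transcription factors reported to bind YAP or TAZ, 8 (44.4%) were above both and as many below both, against the same 32.2% and 39.9%. *TP73*, a p53 relative, was at 5.97 and 4.74 FPKM in siYAP/TAZ and at 8.27 FPKM in siTEAD1/2/3/4. *KLF5*, an epithelial transcription factor, was at 22.3 and 24.2 FPKM in siYAP/TAZ and at 15.8 FPKM in siTEAD1/2/3/4.

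Stress and hypoxia genes included some of the larger differences. *NDRG1*, induced by hypoxia and differentiation, was at 8.57 FPKM in siTEAD1/2/3/4, at 17.9 and 18.5 FPKM in siYAP/TAZ, and at 9.51 and 9.7 FPKM in siNC. *DDIT4*, an inhibitor of mTORC1, was at 21 FPKM in siTEAD1/2/3/4, at 39.1 and 53.7 FPKM in siYAP/TAZ, and at 12.5 and 12.7 FPKM in siNC. These were the only 2 of 32 compared hypoxia and glycolysis genes that were at least 1.5-fold below both, against 1.49% of all genes. In that list 14 (43.8%) were above both and 7 (21.9%) below both, against 32.2% and 39.9% of all genes, with *ADM*, the vasodilator adrenomedullin, at 35.6 FPKM in siTEAD1/2/3/4 and at 22.3 and 23.5 FPKM in siYAP/TAZ. The lists of lysosome and autophagy, Notch, Wnt and small RNA machinery genes had medians between -0.026 and 0.032 against the mean of siYAP/TAZ. Against a single siYAP/TAZ library they moved, for Wnt genes to -0.18 against siYAP/TAZ 1, and for lysosome and autophagy genes to 0.091 against siYAP/TAZ 1 and -0.13 against siYAP/TAZ 2. Of 8 further lists (EGFR ligands, BCL2 family, ATF4 response, chaperones of the endoplasmic reticulum, matrix and integrins, colon differentiation, TEAD coregulators, TGF-beta feedback) the medians were between -0.076 and 0.10 against the mean of siYAP/TAZ, between -0.18 and 0.031 against siYAP/TAZ 1, and between -0.034 and 0.15 against siYAP/TAZ 2. Interferon-stimulated genes, of which 20 of 40 were compared, had 9 members (45%) below both and 5 (25%) above both, near the 39.9% and 32.2% of all genes, and the median was 0.011 against siYAP/TAZ 1 and -0.21 against siYAP/TAZ 2.

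The sequence TEAD factors bind, GGAATG read on either strand, was looked for in the RefSeq promoters (GRCh38.p14, 250 bases before to 50 after the start of a gene), which were found for 8689 of the genes compared. It was in 907 of these (10.4%), in 6 of 24 promoters (25%) of the genes at least 1.5-fold above both siYAP/TAZ libraries and in 14 of 125 (11.2%) of those at least 1.5-fold below both. A match is a description of the letters and no evidence of binding, and 6 promoters are few. The 6 genes were *YAP1*, *LATS2*, *GINS1*, *EPHA2*, *SPRY4* and *ACVR2B*. Of these, *YAP1* is a target of the siYAP/TAZ siRNAs, and counting it raises the share of 25%. Where the match was before the start, 30 bases around it are shown for the genes that are no siRNA target, with the motif or its reverse complement in capitals.
GINS1: tccgcccctcttGGAATGcggctgagcggt
EPHA2: cccctttaaagaCATTCCtgagggcgggcg
ACVR2B: tggtcaggagccCATTCCcgccacctccgt
They lie at chr20:25407595-25407624 on the plus strand, 66 bases before the start of *GINS1*, at chr1:16156125-16156154 on the minus strand, 73 bases before the start of *EPHA2*, and at chr3:38453652-38453681 on the plus strand, 226 bases before the start of *ACVR2B*. The promoters of *AMOTL2*, *EGR1*, *MAP3K14* and *SMAD7* were in the table and did not hold these letters in this window.

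An siRNA can also lower mRNAs that pair only with its seed. The 7 letters shown in capitals for siTEAD1/3/4 were in the 3′ UTR of 11 of 151 genes at least 1.5-fold below both siYAP/TAZ libraries (7.28%), against 9.79% of the 10377 genes with a 3′ UTR. For siTEAD2 they were in 16 (10.6%) against 12.5%. Among the genes named above as low in siTEAD1/2/3/4, *AKAP12* had 2 matches of siTEAD2, *TPD52* 1 match of siTEAD2, *AMMECR1* 1 match of siTEAD1/3/4 and *ACLY* 2 matches of siTEAD1/3/4, while *TAX1BP3* had none of either. The words of siYAP_1, siYAP_2 and siTAZ_1 were in 5, 8 and 4 of the 33 genes at least 1.5-fold above both (15.2%, 24.2% and 12.1%), against 11.2%, 13.9% and 11.1% of all genes with a 3′ UTR. The part of seed pairing in single genes was not tested.

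Markers of epithelium were present in every library, but most genes of intestinal differentiation missed the filter. Of 8 markers of colon epithelium 6 were at 1 FPKM or more in each of the 5 libraries, with *KRT8* the most abundant. The filter was passed by *EPCAM*, *CDH1*, *KRT8*, *KRT18*, *KRT19* and *CDX2* and missed by *VIL1* and *CEACAM5*. In the list of intestinal and colon differentiation, 16 of 20 genes missed it. The summed level of the 8 markers was 2717 FPKM in siTEAD1/2/3/4 and 2032 and 1977 FPKM in siYAP/TAZ, and *EPCAM*, an epithelial adhesion protein, was at 141, 148 and 157 FPKM. Of 20 markers of immune, endothelial, stromal, neural and blood cells 2 were at 1 FPKM or more in siTEAD1/2/3/4, 3 in siYAP/TAZ 1 and 4 in siYAP/TAZ 2. Their summed levels were 8.45, 11.2 and 12.2 FPKM, with *CD68* the most abundant at 5, 7.33 and 5.28 FPKM, and 8, 8 and 3 of them were listed at 0.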

How the data were processed

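RNA of HCT-116 cells was sequenced on an Illumina instrument. The authors deposited 1 table per library with FPKM values, and the submitters' processing notes name Trimmomatic 0.36, HISAT2 2.0.5, Cufflinks 2.2.1 and HTSeq 0.9.1. The genome build of the RNA-seq is not given in the sources used here, and depth could not be read from FPKM beyond the relative spacing of low values. Groups came from the sample labels. Genes with at least 1 FPKM in 2 of the 3 libraries were compared on log2(FPKM + 1), with no further scaling. Distances were taken to the nearer siYAP/TAZ library. limma 3.58.1 in R 4.3.3 was fitted to the 8 libraries in 4 groups, with a trend of the variance on the mean and Benjamini-Hochberg adjustment. GC content and length, coordinates and 3′ UTRs came from the canonical transcripts of GENCODE on GRCh38, found for 99.5% of the genes. The GC and length correction took off a fitted spline trend (4 degrees of freedom for each). Python 3.11.15 with numpy and pandas did the rest, and the fit was tested on simulated data.

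The genes compared, the gene lists and the promoter and seed searches were chosen with earlier results of these data known. The genes named are the siRNA targets, the 12 with the largest distance in each direction, members of a list past 2-fold, up to 4 members of a described list with the largest distance, and the target signature. *EIF3C*, *HSPE1-MOB4*, the MCM and GINS genes, *CDKN1A*, *NF2*, *FOSL1*, *TP73* and *ACVR2B* were added after their values were seen, as were those on opposite sides of siNC. In each file 27 rows were named by a date and were not renamed. The alternatives were another pseudocount, other filters, median scaling, the GC and length correction, the mean of siYAP/TAZ, other fits, and leaving out each siYAP/TAZ library. The siHHEX libraries entered only the limma fit.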

Additional observations from a re-analysis of the deposited data

Results flagged for a closer look

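For 18 genes siTEAD1/2/3/4 was on one side of both siNC libraries and both siYAP/TAZ libraries were on the other, with siTEAD1/2/3/4 at least 1.5-fold from both siYAP/TAZ libraries and each knockdown at least 1.25-fold from the siNC mean. These limits were chosen after the data were seen, and siTEAD1/2/3/4 is 1 library. limma called none of these 18 genes at an adjusted p under 0.05 between the knockdowns, and that they lie on opposite sides of siNC was not tested. siTEAD1/2/3/4 was higher for 3 of them, with a difference from the mean of siYAP/TAZ on log2(FPKM + 1) of 1.63 for *EIF3CL*, 1.02 for *GINS1* and 1.02 for *SMAD7*. The reads of *EIF3CL* can be shared with *EIF3C*.

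siTEAD1/2/3/4 was lower for the other 15. *HIST1H2AC* had a difference of -1.94, *TK2*, a mitochondrial thymidine kinase, of -1.13, and *GOLT1A* of -1.23. The difference was -1.16 for *RTL8C*, -1.04 for *TRNP1*, -0.94 for *LRRC26* and -0.97 for *TSTD1*. It was -0.88 for *BABAM2*, a subunit of the BRCA1-A complex, -0.80 for *CASP4*, an inflammatory caspase, -0.87 for *MAOB*, monoamine oxidase B, and -0.95 for *RWDD2B*. It was -0.89 for *TEAD2*, itself a target of the siRNAs, -0.80 for *CHMP3*, of the ESCRT-III complex, -0.76 for *C6orf120* and -0.72 for *ZBED5*. In all, 1077 of the 10461 genes had the knockdowns on opposite sides of both siNC libraries by any distance. Of these, 16 were at least 1.5-fold apart with siTEAD1/2/3/4 higher and 76 with siTEAD1/2/3/4 lower. Over all genes, 33 were at least 1.5-fold above both siYAP/TAZ libraries and 156 at least 1.5-fold below both, so the lower side was the larger there too. Of those 156, 22 were under 1 FPKM in siTEAD1/2/3/4 and could only lie below both.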

How the results depend on the processing

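The counts of genes outside both siYAP/TAZ libraries depended on the pseudocount and on how siYAP/TAZ was summarised. With a pseudocount of 0.1 the counts above and below were 12 and 54 at 2-fold and 57 and 313 at 1.5-fold. With the mean of siYAP/TAZ in place of the nearer library they were 12 and 38 at 2-fold and 100 and 327 at 1.5-fold. With at least 5 FPKM in 2 of the 3 libraries, 1 gene was above both at 2-fold, and 17 were above and 95 below both at 1.5-fold. A fold of 1.5 in place of 2 gave 33 and 156. Against a single siYAP/TAZ library, the counts were 22 to 27 above and 35 to 88 below at 2-fold, and 118 to 282 above and 302 to 580 below at 1.5-fold. Without the filter, with median scaling and with the GC and length correction they were within 1.5 times of those reported. Of the 12 genes below both at 2-fold, 9 remained with median scaling and 10 with the GC and length correction, and of the 5 above both 5 and 4 remained. The 1.5-fold alternatives were chosen after the data were seen.

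limma called 0 genes in a fit of siNC, siYAP/TAZ and siTEAD1/2/3/4 and 0 in a fit of the 3 libraries alone (at an unadjusted p under 0.05, 749 and 271 genes were higher and 1020 and 515 lower), 23 without the filter, where 20 were higher, and between 0 and 6 without 1 siYAP/TAZ library. No paired analysis was possible because siTEAD1/2/3/4 carries no replicate number. Of 31 gene lists, the sign of the median difference changed in 5 with median scaling, in 7 with the GC and length correction, in 5 without siYAP/TAZ 1 and in 9 without siYAP/TAZ 2, and in none with a pseudocount of 0.1. The lists of DNA replication, mitosis, actin, p53 target and cholesterol genes kept their sign in each of these. The histone list did too, but its sign was partly fixed by the filter, which each of these kept. Through it, 3 histone genes could only lie below both siYAP/TAZ libraries. With no filter, 12 of the 24 histone genes were below both, 6 above both and 6 between. The single siTEAD1/2/3/4 library and the unknown read depth limit every comparison. So does the unequal strength of the knockdowns, since *TEAD3* mRNA was not lowered and *TEAD1* mRNA was lowered only in part.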
